A study of Mus musculus with 6 samples.

Results

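The 10 genes described here are the ligand genes Wnt4, Wnt5a, Wnt6, Wnt7a, Wnt7b, Wnt9a and Wnt10a and the Wnt feedback genes Axin2, Lef1 and Nkd2, found by symbol in a table of read counts for 21240 genes. Wnt ligands are lipid-modified secreted glycoproteins that bind Frizzled receptors on nearby cells. In the canonical branch the ligand stabilizes β-catenin, which activates target genes together with TCF and LEF factors, and some of these targets, such as Axin2, feed back to limit the signal. In the mammary gland Wnt signals are known for their part in ductal branching and in the upkeep of basal stem cells.

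NMuMG cells, an epithelial line from normal mouse mammary gland, were kept in medium without serum or insulin for 6 h and then split into 3 groups. These were a vehicle group sampled after 2 h and a pair of groups given TGFβ1 (5 ng/ml) and sampled after 2 h and 12 h. Each group has 2 stranded total RNA libraries, labelled as biological replicates. All groups share the line and the 6 h without serum and insulin. Since vehicle was sampled at 2 h only, the 12 h group differs from it in time without serum and insulin as well as in TGFβ1. Libraries held 14705886 to 23786993 counts. Levels are given in CPM, the gene's counts relative to the library's total after scaling by TMM factors, which correct for RNA composition. A single count was worth 0.0435 to 0.0637 CPM.

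Of the 10 genes, 5 reached 2 CPM in at least 2 libraries and were tested along with all other genes above that limit, 11080 in total. These were Wnt4, Wnt7a, Wnt7b, Wnt9a and Axin2. Wnt7a and Wnt9a were below 2 CPM in both vehicle libraries and Wnt4 in both 12 h libraries, so these genes passed through the groups in which they were high, and the counts below do not speak for the genes that did not pass. Fold changes are given as log2FC ± SE, and adjusted p is the Benjamini-Hochberg value of edgeR's quasi-likelihood test over all tested genes, with 0.05 as the threshold. Both comparisons with vehicle use the same 2 vehicle libraries.

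Of the 10 genes, 5 were tested. At 2 h, 3 of these were above vehicle (Wnt4, Wnt7a and Wnt7b) and 0 below, against 9.91% and 5.25% of all tested genes. At 12 h, 3 were higher (Wnt7a, Wnt7b and Wnt9a) and Wnt4 was lower, against 21.8% and 21.5% of tested genes. Between 2 h and 12 h of TGFβ1, Wnt7a and Wnt9a were higher at the later time and Wnt4 lower, against 15.2% and 18.9%. Without TMM factors the median gene moved by -0.11 at 2 h and -0.13 at 12 h on the log2 scale, and the split of all called genes went from 1098 higher and 582 lower to 854 and 974 at 2 h and from 2414 and 2385 to 1831 and 3045 at 12 h. In total RNA of a culture, fewer cells that express a gene and less RNA of it per cell cannot be told apart.

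Wnt7b, a ligand of the canonical branch in many epithelia, had the highest level of the 7 ligands per length of transcript. Its level was 37.2 and 37.2 CPM in the vehicle libraries, 273 and 329 CPM at 2 h and 371 and 377 CPM at 12 h. The treated libraries were all far above vehicle, and most of the rise was in place at 2 h. The log2FC was 3.02 ± 0.13 at 2 h (adjusted p = 0.000118) and 3.33 ± 0.13 at 12 h (adjusted p = 3.16e-05). Between the treated times it was 0.31 ± 0.12 (adjusted p = 0.0805), which did not pass, although both 12 h libraries lay above both 2 h libraries. Without the second 2 h library that difference passed (log2FC 0.46, adjusted p = 0.0234), and over all alternatives its adjusted p was 0.0234 to 0.254.

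Wnt7a, the closest relative of Wnt7b in the family, rose more gradually. It had 0.588 and 1.40 CPM in vehicle, 3.39 and 5.70 CPM at 2 h and 15.4 and 16.6 CPM at 12 h. The groups did not overlap, and each time was above the one before. The log2FC was 2.20 ± 0.43 at 2 h (adjusted p = 0.0187) and 4.01 ± 0.42 at 12 h (adjusted p = 0.000534). From 2 h to 12 h the level rose by a further 1.81 ± 0.35 on the log2 scale (adjusted p = 0.00921). The 2 h call was lost without vehicle replicate 1 (log2FC 1.69, adjusted p = 0.0854), without either 12 h library (adjusted p = 0.0631 and 0.0632), and with the vehicle and 2 h libraries alone (adjusted p = 0.0689), while the log2FC stayed between 1.69 and 2.94. The rise from 2 h to 12 h was likewise lost without either 12 h library (adjusted p = 0.0621 and 0.0677).

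Wnt9a, a ligand with known roles in joint and blood stem cell development, was raised at 12 h. Its counts were 2 and 6 in vehicle, 5 and 19 at 2 h and 150 and 153 at 12 h, or 0.118 and 0.382, 0.253 and 0.958, and 6.53 and 7.85 CPM. The 2 h libraries overlapped those of vehicle and the 12 h libraries stood clear of both. Against vehicle the log2FC was 4.83 ± 0.64 at 12 h (adjusted p = 0.0014), and against 2 h it was 3.55 ± 0.54 (adjusted p = 0.00387). Pooled and scaled for library size, the 12 h level was 29.2 times that of vehicle. The 95% counting interval was wide, 14.6 to 68.2, because vehicle held 8 counts in all. With single libraries left out the log2FC at 12 h was 4.21 to 5.86 against vehicle and 2.90 to 4.79 against 2 h. At 2 h the log2FC of 1.28 ± 0.79 did not pass (adjusted p = 0.334) and went from 0.04 to 2.30 as single libraries were left out.

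Wnt4, which acts downstream of progesterone in mammary branching, changed in opposite directions at the 2 times. It had 6.82 and 9.42 CPM in vehicle, 14.2 and 21.0 CPM at 2 h and 0.174 and 0.308 CPM at 12 h. The 2 h libraries were above both vehicle libraries, and the 12 h libraries, with 4 and 6 counts, were far below them. The log2FC was 1.12 ± 0.28 at 2 h (adjusted p = 0.0402), -5.06 ± 0.41 at 12 h (adjusted p = 0.000202) and -6.18 ± 0.40 from 2 h to 12 h (adjusted p = 0.000254). The 2 h call held by a narrow margin: it was lost without TMM factors (adjusted p = 0.059), with the vehicle and 2 h libraries alone (adjusted p = 0.0821) and when any library other than 2 h replicate 1 was left out. The adjusted p was 0.207 and 0.0828 without vehicle replicates 1 and 2, 0.129 without 2 h replicate 2, and 0.084 and 0.0834 without the 12 h replicates. The call passed with limma-voom (adjusted p = 0.0399) and DESeq2 (adjusted p = 0.0115), and over all alternatives the adjusted p was 0.000903 to 0.207. The log2FC at 2 h was positive with each library left out, from 0.81 to 1.37, and the fall at 12 h passed in all of those fits.

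**Figure D1:**
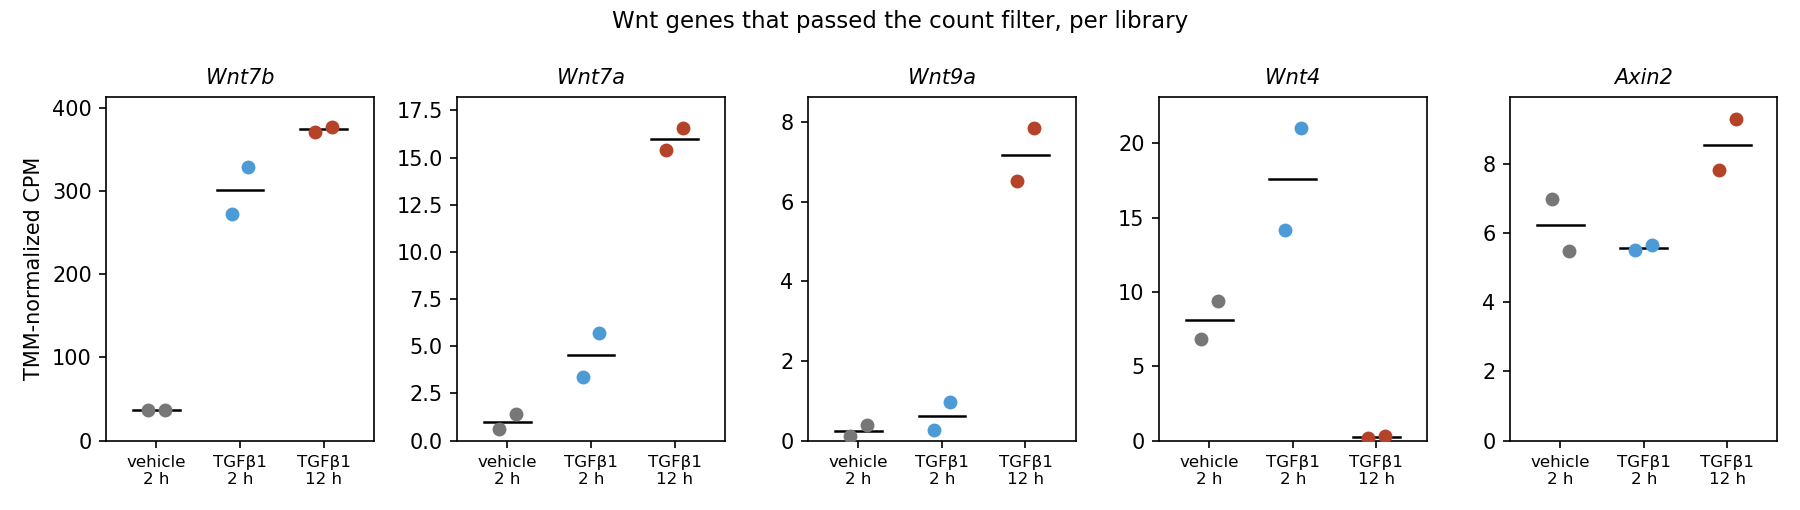
TMM-normalized CPM (vertical axes, linear, each from 0) of the 5 genes that passed the count filter, in vehicle at 2 h and in TGFβ1 at 2 h and 12 h. Points are the 2 libraries of a group and bars their mean. Wnt7b reaches 273 and 329 CPM by 2 h, Wnt9a rises to 6.53 and 7.85 CPM at 12 h, and Wnt4 is at 0.174 and 0.308 CPM at 12 h.

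Wnt5a, Wnt6 and Wnt10a were barely counted. Wnt5a, known as a ligand of non-canonical Wnt signaling, had 1 and 0 counts in vehicle, 3 and 0 at 2 h and 2 and 1 at 12 h. Wnt6 had 1 and 0, 2 and 4, and 0 and 0 counts in the same order. Wnt10a had 0 and 1, 4 and 3, and 0 and 1 counts. No fold is given for these genes: their groups lie at or near the floor of 3 counts per library, which equals 0.131 to 0.191 CPM, and a change below it was not detectable at this depth. Without the filter their adjusted p was 0.147 or higher in every comparison. Wnt6 and Wnt10a are direct neighbours, with starts 19.6 kb apart on chromosome 1.

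Axin2, a scaffold of the β-catenin destruction complex and a widely used readout of canonical signaling, was counted in all libraries. Its level was 7.00 and 5.48 CPM in vehicle, 5.51 and 5.65 CPM at 2 h and 7.84 and 9.29 CPM at 12 h. The 2 h libraries lay within the range of vehicle, and the 12 h libraries were above all others. No comparison passed: the log2FC was -0.16 ± 0.21 at 2 h (adjusted p = 0.658), 0.45 ± 0.21 at 12 h (adjusted p = 0.123) and 0.62 ± 0.21 from 2 h to 12 h (adjusted p = 0.0604). These values do not show that Axin2 stayed the same, and its sign at 2 h turned to 0.03 without vehicle replicate 1. Over all alternatives its adjusted p between 2 h and 12 h was 0.0275 to 0.267.

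The other feedback genes were below the floor of 3 counts in every library. Lef1, the TCF-family factor that is itself a Wnt target, had a single count in a 2 h library and in a 12 h library and 0 in the other 4. Nkd2, an inhibitor that binds Dishevelled, had a single count in a vehicle library and in a 2 h library. Its relative Nkd1 had 0 counts in all 6 libraries. Of the 3 genes listed as feedback genes, Axin2 is therefore the only gene with a measured level here.

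Divided by exon length, the ligands can be set against each other. In vehicle the order was Wnt7b at 8.43 ± 0.01 CPM per kb (mean ± SD), Wnt4 at 1.94 ± 0.44, Wnt7a at 0.314 ± 0.181 and Wnt9a at 0.0750 ± 0.0562, with Axin2 at 1.13 ± 0.20 between Wnt4 and Wnt7a. At 2 h the levels were 68.2 ± 9.06 CPM per kb for Wnt7b, 4.20 ± 1.15 for Wnt4, 1.43 ± 0.51 for Wnt7a, 1.01 ± 0.02 for Axin2 and 0.182 ± 0.150 for Wnt9a. Wnt7a and Axin2 were then closer than 1 SD of Wnt7a. At 12 h Wnt7b had 84.8 ± 0.92 CPM per kb, Wnt7a 5.04 ± 0.26, Wnt9a 2.16 ± 0.28, Axin2 1.55 ± 0.19 and Wnt4 0.0575 ± 0.0225. Wnt4 thus went from the ligand next below Wnt7b to the lowest of the 4 tested ligands. With the longest transcript in place of the union of exons the order was the same in each group, but at 12 h Wnt9a (2.17) and Axin2 (2.01) were then within 1 SD of Wnt9a.

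Summed over all 19 Wnt ligand genes, the length-scaled level was 10.3 and 11.3 CPM per kb in vehicle, 66.6 and 82.2 at 2 h and 91.5 and 93.5 at 12 h. Most of that sum was Wnt7b in every library, with 81.7% and 74.8% in vehicle, 92.7% and 90.8% at 2 h and 91.9% and 91.4% at 12 h. The share of Wnt4 was 15.8% and 19.9% in vehicle, 5.08% and 6.10% at 2 h and 0.0454% and 0.0785% at 12 h. The shares are of RNA, and protein was not measured.

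**Figure D2:**
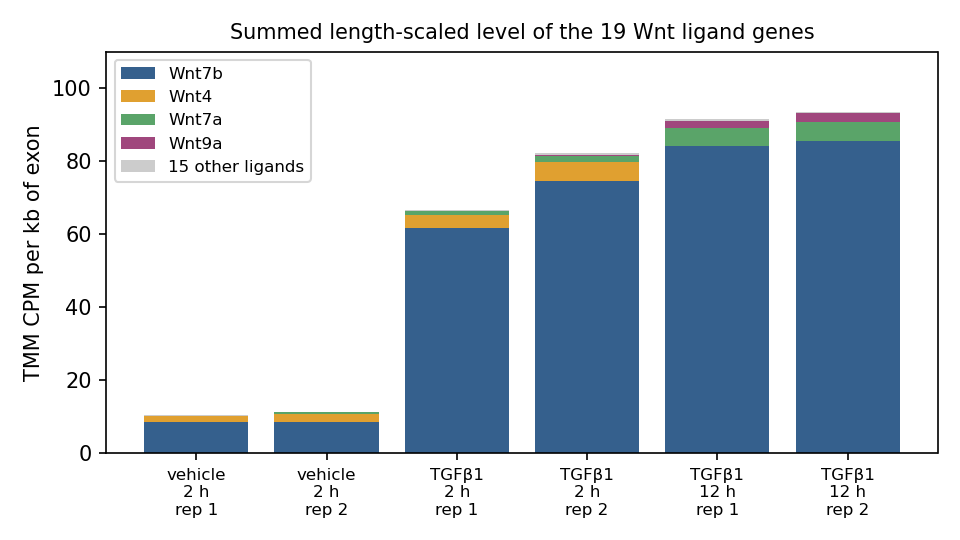
Summed TMM CPM per kb of exon of the 19 Wnt ligand genes in each of the 6 libraries, stacked by gene, with a linear axis from 0. The sum is 10.3 and 11.3 in vehicle and 91.5 and 93.5 at 12 h, and Wnt7b makes up 74.8% or more of every bar.

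The other 12 ligand genes all stayed below the filter, and 4 of them had 0 counts in all libraries. Wnt11, a ligand of non-canonical signaling, had 0 and 0 counts in vehicle, 0 and 1 at 2 h and 26 and 11 at 12 h, which is at least 4.62-fold higher at 12 h than the floor of 3 counts per vehicle library, or 6.16-fold and 3.07-fold from either 12 h library alone. Wnt1, the founding member of the family, had 0 and 0 counts in vehicle, 4 and 13 at 2 h and 8 and 8 at 12 h, at least 2.33-fold and 2.07-fold above that floor. From the 2 h libraries taken singly the limit for Wnt1 was 1.10-fold and 3.57-fold. Both genes were singled out after their values had been seen, and neither was tested. Wnt3a, which starts 16.2 kb from Wnt9a on chromosome 11, had 0 counts in every library, including those in which Wnt9a had 150 and 153.

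In genome build NCBIM37 the 5 tested genes lie on 4 chromosomes. Wnt7b is at chr15:85365869-85412251 on the minus strand, Wnt7a at chr6:91313975-91361357 on the minus strand and Wnt9a at chr11:59120430-59147054 on the plus strand. Wnt4 is at chr4:136833404-136855641 and Axin2 at chr11:108781663-108812097, both on the plus strand. An annotated noncoding transcript overlaps Wnt7b on the opposite strand (AU022754) and another overlaps Axin2 (Gm11670). The authors counted reads by strand.

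The tested genes next to the ligands moved in several directions, and these neighbours were looked up after the ligands' values had been seen. Fbln2, an extracellular matrix gene whose start lies 199 kb from that of Wnt7a, rose from 580 and 492 CPM in vehicle to 1300 and 1296 CPM at 2 h and 3751 and 3790 CPM at 12 h (log2FC 2.82 and adjusted p = 3.68e-05 at 12 h). On the other side of Wnt7a, Chchd4 did not pass in any comparison. Ppara, a nuclear receptor gene 153 kb from Wnt7b, fell by 2.37 on the log2 scale at 2 h (adjusted p = 0.00784), a call lost without vehicle replicate 1. At 12 h Ppara was also below vehicle (log2FC -2.15, adjusted p = 0.00338). It was above 2 CPM in the vehicle libraries only and so passed the filter through the group in which it was high. Atxn10, on the other side of Wnt7b, rose by 1.11 at 12 h (adjusted p = 0.000287). Next to Wnt9a, Arf1 and Jmjd4 were higher at 12 h by 0.46 and 0.85 on the log2 scale (adjusted p = 0.014 and 0.00298), far less than Wnt9a itself, and the call of Arf1 was lost without either vehicle library or 12 h replicate 1 (adjusted p up to 0.116). Neither Zbtb40 nor Cdc42, on either side of Wnt4, passed in any comparison.

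The genes most like each ligand over the 6 libraries were sought among all tested genes outside the Wnt lists, by the distance between centred log2 CPM. Nearest to Wnt7b was Fos, a subunit of AP-1, with 1.82 and 2.10 CPM in vehicle, 17.1 and 18.1 CPM at 2 h and 21.6 and 23.0 CPM at 12 h, at a root mean square difference of 0.08 log2 units, and then the potassium channel gene Kcnk12 at 0.12. Kcnk12 had 2 and 3 counts in vehicle, where the added 0.25 CPM shapes the pattern, and its log2FC of 4.42 at 2 h and 4.77 at 12 h was larger than that of Wnt7b. Nearest to Wnt7a were the desmosomal gene Pkp1 (0.15) and the syndecan gene Sdc3 (0.18). Wnt4 was followed at a larger difference by Depdc1b (0.26) and the integrin gene Itgb7 (0.42). The latter fell from 76.0 and 121 CPM in vehicle to 2.96 and 4.98 CPM at 12 h. Wnt9a was nearest to F13a1 (0.29), which had 0 counts in both vehicle libraries and 52 and 73 at 12 h, so that its pattern likewise rests on the added value, and to Prg4 (0.35), and Axin2 to Wdr43 (0.06) and Rpl11 (0.07). These are likenesses of pattern over 6 libraries and say nothing of shared control.

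The fixed list of other Wnt pathway genes held 106 genes, of which 59 were tested, 47 stayed below the filter and 21 had 0 counts in all libraries. At 2 h 15 of them had risen and 2 had fallen against vehicle. The 12 h group had 20 above vehicle and 14 below, and from 2 h to 12 h 8 rose and 16 fell. Over all tested genes the shares were 9.91% higher and 5.25% lower at 2 h, 21.8% and 21.5% at 12 h, and 15.2% and 18.9% between the times. With single libraries left out, the 17 calls at 2 h became 8 to 18 and the 34 at 12 h became 18 to 36. Lgr6, Tcf7, Ephb2 and Fzd8 were below 2 CPM in both vehicle libraries and so passed the filter through the TGFβ1 groups in which they were high. Lgr5, Apcdd1, Fzd4 and Celsr2 were below 2 CPM in both 12 h libraries and passed through the groups in which they were high. The counts of risen and of lower genes here and in the lists below include these genes. Over all tested genes the median log2FC was -0.01 at 2 h, 0.02 at 12 h and 0.01 between the times. For the 59 tested genes of the list it was 0.20, 0.00 and -0.02. Without TMM factors the split at 12 h was 15 higher and 18 lower. Named below are the genes called against vehicle with an absolute log2FC above 1, and Ctnnb1, Tcf7l2, Lrp6 and Nkd1 whatever their values, while any other gene of the list was picked after its values were seen.

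The genes that process and release the ligands are named after their values were seen, and both were higher at 12 h, as were 21.8% of all tested genes. Porcn, the acyltransferase that adds the lipid to Wnt proteins, had 34.5 and 22.2 CPM in vehicle and 55.1 and 53.2 CPM at 12 h (log2FC 0.93 ± 0.22, adjusted p = 0.0135). Wls, the carrier that takes the lipidated ligand to the cell surface, had 406 and 329 CPM in vehicle and 546 and 522 CPM at 12 h (log2FC 0.54 ± 0.15, adjusted p = 0.0284). Both calls were lost without either 12 h library (adjusted p up to 0.0865 and 0.157), and that of Wls also without vehicle replicate 2 or without TMM factors.

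Of the 16 receptors and co-receptors, 12 were tested. By 2 h 4 had risen and Fzd5 had fallen, and by 12 h 6 stood above vehicle and 3 below, beside 9.91% higher and 5.25% lower at 2 h and 21.8% and 21.5% at 12 h over all tested genes. Fzd2 had 14.4 and 17.4 CPM in vehicle, 39.7 and 52.8 CPM at 2 h and 52.9 and 63.9 CPM at 12 h, with a log2FC of 1.54 ± 0.19 (adjusted p = 0.00351) and 1.87 ± 0.19 (adjusted p = 0.000473). Fzd1 was higher by 1.12 ± 0.18 at 12 h (adjusted p = 0.00324). Its call at 2 h (log2FC 0.79 ± 0.18, adjusted p = 0.033) was lost when any library other than 2 h replicate 2 was left out and with the vehicle and 2 h libraries alone (adjusted p up to 0.156). Fzd5 fell from 89.9 and 69.8 CPM in vehicle to 37.5 and 33.2 CPM at 2 h (log2FC -1.18 ± 0.15, adjusted p = 0.0038) and had 60.8 and 57.3 CPM at 12 h, higher than at 2 h by 0.74 ± 0.15 (adjusted p = 0.0101), a rise that was lost without either 12 h library (adjusted p up to 0.0817). At 12 h Fzd5 was still below vehicle (log2FC -0.44 ± 0.15, adjusted p = 0.049998), and that call was lost with limma-voom, without the filter, without vehicle replicate 1 and without either 12 h library (adjusted p up to 0.28). Thus the Frizzled receptors did not move as a group.

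Among receptors of the non-canonical branch, the kinase-like receptor gene Ror1 rose from 13.7 and 10.95 CPM in vehicle to 21.7 and 20.3 CPM at 2 h and 40.4 and 46.3 CPM at 12 h (log2FC 1.81 ± 0.16 at 12 h, adjusted p = 0.000274). Its call at 2 h (log2FC 0.77 ± 0.16, adjusted p = 0.0228) was lost without vehicle replicate 2, without either 12 h library and with the vehicle and 2 h libraries alone (adjusted p up to 0.12). Ptk7, a pseudokinase receptor, rose from 5.12 and 4.65 CPM to 17.0 and 17.8 CPM at 12 h (log2FC 1.83 ± 0.19, adjusted p = 0.000491). Ryk had 123 to 130.3 CPM and passed in no comparison, and Ror2 had 0 counts in all libraries. Fzd4 was lower and Fzd8 higher at 12 h, at no more than 5 CPM. The call of Fzd4 (log2FC -1.29 ± 0.29, adjusted p = 0.0117) was lost without vehicle replicate 1 or either 12 h library, with an adjusted p of up to 0.0822. That of Fzd8 (log2FC 1.58 ± 0.51, adjusted p = 0.0451) was lost with limma-voom, without TMM factors and without either vehicle library, and fell to 0.73 without 12 h replicate 1 (adjusted p = 0.271). The co-receptor gene Lrp6 held 156 to 191 CPM throughout, with a log2FC of 0.13 ± 0.10 at 2 h (adjusted p = 0.45) and -0.10 ± 0.10 at 12 h (adjusted p = 0.465). The other co-receptor gene, Lrp5, had 247 and 231 CPM in vehicle, 334 and 336 CPM at 2 h and 165 and 167 CPM at 12 h, with a log2FC of 0.49 ± 0.09 (adjusted p = 0.0179) and -0.53 ± 0.09 (adjusted p = 0.00476). Its 2 h call was lost without either vehicle library, without either 12 h library and with the vehicle and 2 h libraries alone (adjusted p up to 0.131).

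The receptors of R-spondins, secreted proteins that amplify Wnt signaling by removing the ligases that degrade Frizzled receptors, diverged. Lgr6 had 8 and 4 counts in vehicle, 105 and 196 at 2 h and 1146 and 1126 at 12 h. The rise was 4.35 ± 0.45 on the log2 scale at 2 h (adjusted p = 0.00188) and 7.17 ± 0.43 at 12 h (adjusted p = 7.99e-05). Pooled and scaled for library size, the 12 h level of Lgr6 was 146 times that of vehicle, with a 95% counting interval of 83.3 to 283. Lgr5, its relative and a stem cell marker in many epithelia, had 113 and 50 counts in vehicle, 57 and 18 at 2 h and 5 and 3 at 12 h (log2FC -4.67 ± 0.77 at 12 h, adjusted p = 0.00334). Lgr5 passed the filter through vehicle, where it was high, and was below 2 CPM in both 12 h libraries. Lgr4 had 171 and 149 CPM in vehicle and 47.9 and 42.3 CPM at 12 h (log2FC -1.83 ± 0.18, adjusted p = 0.000403). Per length, Lgr4 went from 27.2 ± 2.61 to 7.67 ± 0.68 CPM per kb and Lgr6 from 0.0953 ± 0.0401 to 14.2 ± 1.47, so that the order of the 2 genes was exchanged. Among the R-spondins, Rspo3 was counted at 8.97 to 13.5 CPM and passed in no comparison, and Rspo1, Rspo2 and Rspo4 had 0 counts.

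Secreted and membrane inhibitors were mostly below the filter. Of 16 such genes 2 were tested and 14 stayed below the filter, among them all Dickkopf and secreted Frizzled-related genes on the list, with at most 9 counts in any library. Kremen1, a Dickkopf receptor named after its value was seen, was higher at 12 h by 0.86 ± 0.13 (adjusted p = 0.00265). Apcdd1 was lower by 1.34 on the log2 scale at 12 h (log2FC -1.34 ± 0.38, adjusted p = 0.0274), at 3.07 CPM or less, and the call was lost without vehicle replicate 2 or either 12 h library (adjusted p up to 0.147).

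Inside the cell, Ctnnb1, which encodes β-catenin, had a very high level of 6695 and 5524 CPM in vehicle, 8862 and 7297 CPM at 2 h and 3494 and 3203 CPM at 12 h. The 12 h libraries were below all others. The log2FC was 0.40 ± 0.15 at 2 h, which did not pass (adjusted p = 0.134, and 0.0238 to 0.407 over the alternatives), -0.87 ± 0.15 at 12 h (adjusted p = 0.00449) and -1.27 ± 0.15 from 2 h to 12 h (adjusted p = 0.00169). Without 12 h replicate 2 the adjusted p at 12 h against vehicle was 0.0519. Csnk1e, a kinase acting on Dishevelled, rose from 108 and 115 CPM in vehicle to 203 and 206 CPM at 2 h and 240 and 251 CPM at 12 h (log2FC 1.13 ± 0.10 at 12 h, adjusted p = 0.000239). Of the 15 transducers and destruction complex genes 14 were tested, with 3 above vehicle at 2 h (9.91% of all tested genes), and at 12 h 3 above and 2 below it (21.8% and 21.5% of all tested genes). The destruction complex genes Axin1, Apc and Gsk3b passed in no comparison.

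Among the DNA-binding partners of β-catenin, Tcf7 rose while Lef1 had at most a single count. Tcf7 had 22 and 15 counts in vehicle, 94 and 103 at 2 h and 160 and 142 at 12 h. The groups did not overlap, and the log2FC was 2.13 ± 0.25 at 2 h (adjusted p = 0.00294) and 2.65 ± 0.25 at 12 h (adjusted p = 0.000339). Tcf7l2 had 13.4 to 18.2 CPM, with a log2FC of 0.09 ± 0.19 at 2 h and 0.14 ± 0.19 at 12 h (adjusted p = 0.783 and 0.585). In vehicle its length-scaled level of 1.65 ± 0.10 CPM per kb was above the 0.403 ± 0.086 of Tcf7, and at 12 h it was below it, at 1.81 ± 0.39 against 2.55 ± 0.08. That order at 12 h depends on the length used, since with the longest transcript Tcf7l2 was at 3.69 and Tcf7 at 2.81. The co-repressor gene Tle3, named after its values were seen, was higher at 2 h by 0.79 ± 0.10 (adjusted p = 0.00397) and lower at 12 h (log2FC -0.95 ± 0.10, adjusted p = 0.000574).

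Of 12 other feedback and target genes 5 were tested and 6 had 0 counts throughout, Nkd1 and Sp5 among them. Myc, a growth regulator with many inputs besides Wnt, had 12.5 and 21.0 CPM in vehicle, 16.2 and 18.4 CPM at 2 h and 59.6 and 65.8 CPM at 12 h (log2FC 1.91 ± 0.24 at 12 h, adjusted p = 0.00112). Ccnd1, the cyclin D1 gene, named after its values were seen, fell by 0.53 at 2 h and 0.52 at 12 h on the log2 scale (adjusted p = 0.0499 and 0.0232), and both calls were lost without either vehicle library or either 12 h library (adjusted p up to 0.225 and 0.134). The call at 2 h was also lost without 2 h replicate 2. The Eph receptor genes Ephb2 and Ephb3, β-catenin targets in the intestine, moved apart. Ephb2 had 3 and 1 counts in vehicle, 29 and 32 at 2 h and 178 and 112 at 12 h. Pooled and scaled for library size, its 2 h and 12 h levels were 12.6 and 55.9 times that of vehicle. The 95% counting intervals of Ephb2 were 4.67 to 47.7 and 21.6 to 206. As single libraries were left out, its log2FC went from 3.08 to 4.46 at 2 h and from 5.21 to 6.59 at 12 h. Ephb3 fell from 38.2 and 66.7 CPM in vehicle to 13.3 and 18.9 CPM at 12 h (log2FC -1.70 ± 0.36, adjusted p = 0.00932), a call lost without 12 h replicate 1 (adjusted p = 0.0773). Ephb2 starts 442 kb from Wnt4 on chromosome 4. At 12 h Ephb2 was thus higher and Wnt4 lower than in vehicle.

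In the planar cell polarity list 7 of 11 genes were tested, of which 3 rose by 2 h and 0 fell, beside 9.91% and 5.25% of all tested genes. The 12 h group had 2 above and 3 below vehicle, beside 21.8% and 21.5%. Daam1, a formin that binds Dishevelled, rose from 62.5 and 62.8 CPM in vehicle to 240 and 191 CPM at 2 h (log2FC 1.78 ± 0.13, adjusted p = 0.00062) and was at 97.0 and 98.3 CPM at 12 h, lower than at 2 h (log2FC -1.14 ± 0.13, adjusted p = 0.00131). Vangl2, a core polarity gene, rose from 4.35 and 5.16 CPM in vehicle to 13.2 and 13.1 CPM at 12 h (log2FC 1.47 ± 0.25, adjusted p = 0.00404). Its call at 2 h (log2FC 1.07 ± 0.25, adjusted p = 0.0356) was lost with limma-voom, without TMM factors and when any library other than 2 h replicate 1 was left out, with an adjusted p of up to 0.186.

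**Figure D3:**
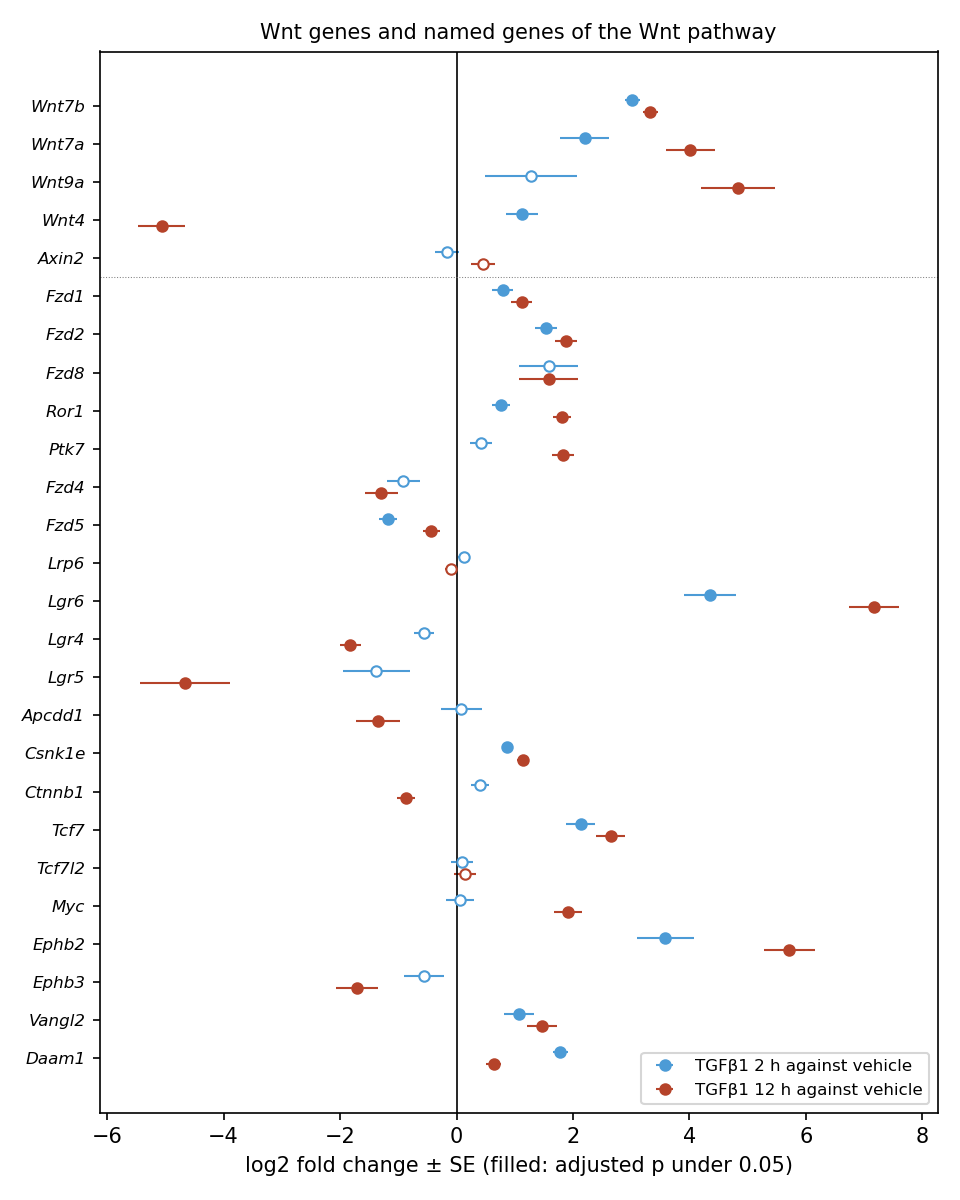
Log2 fold change against vehicle at 2 h (blue) and 12 h (red) of the 5 tested Wnt genes, above the dotted line, and of the tested named genes of the pathway, with bars of 1 SE and filled points where the adjusted p is under 0.05. Lgr6 reaches 7.17 and Wnt4 is at -5.06 at 12 h. Changes are relative to TMM scaling.

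Epithelial identity was checked with marker genes. Of 6 luminal epithelial markers, Krt18, Krt8, Krt19 and Cdh1 were abundant, with Cdh1, the E-cadherin gene, at 337 to 608 CPM. Epcam had 2 to 16 counts per library, and Cldn7 had 0 counts in 5 libraries and 7 in 2 h replicate 2, so these epithelial markers were absent or nearly so. The summed luminal level was 5777 and 4958 CPM in vehicle, 6437 and 6472 CPM at 2 h and 10310 and 10360 CPM at 12 h, with Krt18 the most abundant gene. At 12 h Krt8 and Krt18 were higher, and Krt19 was lower by 1.95 on the log2 scale (log2FC -1.95 ± 0.13, adjusted p = 0.000103).

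Of 5 basal or myoepithelial markers 1 was tested, Krt14, and the list summed to 5.18 and 2.55 CPM in vehicle, 8.75 and 11.8 CPM at 2 h and 5.70 and 9.03 CPM at 12 h, with Oxtr at 0 and Trp63 at 2 counts or fewer. The 6 fibroblast markers summed to 4.65 and 3.50 CPM in vehicle, 9.46 and 9.12 CPM at 2 h and 16.02 and 14.8 CPM at 12 h. Their most abundant gene, Col1a1, was higher at both times, while Lum had at most a single count and Pdgfra passed in no comparison. Dcn went the other way, with 10 and 1 counts in vehicle, 11 and 2 at 2 h and 1 and 0 at 12 h, Pdgfrb, not tested, had 0 and 0 counts in vehicle, 2 and 3 at 2 h and 22 and 26 at 12 h, and Col1a2 was counted mainly in the first replicates, at 11 and 0, 19 and 4, and 28 and 3. The 3 endothelial markers reached 1.95 CPM at 12 h, nearly all of it Cdh5, with Pecam1 and Kdr at 2 counts or fewer. The immune list held 4.14 to 6.81 CPM, mostly Cd68, with Cd3e at 0, and the adipocyte list had at most a single count per library. The basal, fibroblast and endothelial sums were thus higher in all TGFβ1 libraries than in vehicle, at low levels, and their part in these results was not tested.

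Promoter sequences are shown for Wnt4, Wnt7a and Wnt9a, the ligands whose level at 12 h differed both from vehicle and from 2 h. The set of RefSeq promoters used here, of build GRCm38.p6, held entries for 7 of the 10 genes and none for Wnt5a, Wnt7b and Wnt10a. Printed are the 250 bases before the start, 5′ to 3′ on the strand of the gene, with motif matches in capitals. The motifs were TGANTCA of AP-1, CAGAC of SMAD proteins and CTTTGA of TCF and LEF, sought on both strands. Of 32851 promoter windows of this length, 6.75% held the AP-1 motif, 42.2% the SMAD motif and 13.8% the TCF and LEF motif. The Wnt7a window, chr6:91411354-91411603 on the minus strand, held 1 SMAD match. The Wnt4 window, chr4:137277385-137277634, and the Wnt9a window, chr11:59306680-59306929, both on the plus strand, held none of the 3 motifs. The G and C content was 85.2% for Wnt4, 77.6% for Wnt7a and 84.4% for Wnt9a. A match describes the letters of this window and is not evidence of binding.
Wnt4: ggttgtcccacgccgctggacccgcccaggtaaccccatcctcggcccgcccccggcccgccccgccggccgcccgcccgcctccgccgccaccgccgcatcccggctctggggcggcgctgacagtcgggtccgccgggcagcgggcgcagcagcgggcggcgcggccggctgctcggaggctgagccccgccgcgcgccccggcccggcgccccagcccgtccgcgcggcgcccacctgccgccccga
Wnt7a: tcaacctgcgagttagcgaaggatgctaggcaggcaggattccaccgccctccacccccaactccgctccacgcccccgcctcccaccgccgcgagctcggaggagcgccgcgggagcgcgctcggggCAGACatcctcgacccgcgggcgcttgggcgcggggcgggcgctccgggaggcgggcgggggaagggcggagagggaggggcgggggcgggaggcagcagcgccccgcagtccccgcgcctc
Wnt9a: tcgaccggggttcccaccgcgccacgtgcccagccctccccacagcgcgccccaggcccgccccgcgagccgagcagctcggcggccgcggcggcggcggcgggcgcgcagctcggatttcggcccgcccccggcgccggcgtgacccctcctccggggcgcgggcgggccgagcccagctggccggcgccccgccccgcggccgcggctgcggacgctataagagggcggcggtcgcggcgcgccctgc

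Axin2 likewise held 1 SMAD match and no other motif in its window at chr11:108920099-108920348. Wnt6 held none of the motifs and Nkd2 held 1 SMAD match. Lef1 has several windows, which held at most 2 SMAD and 2 TCF and LEF matches each. A relation of these matches to expression was not tested.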

How the data were processed

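According to the study's methods, the authors filtered 50-base single-end reads, aligned them to mm9 (the NCBIM37 assembly) with Rsubread, removed duplicates with SAMtools 0.1.19 and counted reads by strand over exons with featureCounts. The deposited values are raw counts per gene, with no normalization. Ctnnb1 held 62420 to 175269 counts per library over 5.099 kb of exon, far more reads than bases. Removing every single-end read that shares a start with another would leave fewer. Duplicates thus seem to remain in the deposited counts, at least for such genes, and this was not tested. Groups and replicate numbers came from the labels.

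All 3 groups entered 1 model in edgeR 4.0.16 (R 4.3.3), with TMM factors and the quasi-likelihood test. A gene was tested if 2 or more libraries reached 2 CPM, and p-values were adjusted by Benjamini-Hochberg in each contrast. The SE is the absolute log2FC divided by the square root of F. A pseudocount of 0.25 CPM was added before levels were put on a log2 scale. Levels per kb use exon lengths of GENCODE on NCBIM37. Counting intervals (95%, exact binomial) and the floor of 3 counts cover counting error only. The fit was tested on simulated data. Alternatives were limma-voom (limma 3.58.1), DESeq2 1.42.0, other scaling, filters, samples, prior count and lengths. The genes and lists were chosen with earlier results of these data known. Named genes are the 10 genes, pathway genes called against vehicle with an absolute log2FC above 1, Ctnnb1, Tcf7l2, Lrp6 and Nkd1, and the 2 genes nearest in pattern to each tested member of the 10.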

Additional observations from a re-analysis of the deposited data

Results flagged for a closer look

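The effect of TGFβ1 differed between 2 h and 12 h for 3 of the 10 genes, of which 5 were tested. The contrast was that of the 2 treated groups, in which the shared vehicle libraries drop out. In that contrast 15.2% of all tested genes were higher at 12 h and 18.9% lower. Wnt4 differed by -6.18 on the log2 scale, with higher levels than vehicle at 2 h and lower levels at 12 h. Its call at 2 h held by a narrow margin, as given above. Wnt7a differed by 1.81 and Wnt9a by 3.55, both higher at 12 h. With single libraries left out these values were 1.49 to 2.24 and 2.90 to 4.79. The call of Wnt7a was lost without either 12 h library. The time without serum and insulin also differs between the 2 treated groups, and its part cannot be told apart from that of TGFβ1.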

How the results depend on the processing

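With n = 2, calls near the threshold depend on single libraries, and genes with few counts cannot be followed below the floor. With a library left out, the lone library of that group is assumed to vary like the others. The changes of Wnt7b, Wnt7a, Wnt9a and Wnt4 at 12 h against vehicle passed in every alternative that gave a value. Of 88 calls of other genes looked at (named genes, some further pathway genes and the neighbours in position), 56 passed under every alternative, and all 88 had the same sign throughout.

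Of all tested genes, 9.91% were called higher and 5.25% lower at 2 h, and 21.8% and 21.5% at 12 h. Between the times the shares were 15.2% and 18.9%. Of the 10 genes, 5 were tested, and 3 were called at 2 h, 4 at 12 h and 3 between the times. With only the compared groups in the fit, 1 was called at 2 h, and of the other pathway genes 8 in place of 17. With at least 10 counts in every library, which removes Wnt4 and Wnt9a from the test, 2 were called at 12 h and 1 between the times. Leaving out each library gave 1 to 3 calls among the 10 genes at 2 h, 4 to 4 at 12 h and 2 to 4 between the times, and in the pathway list 8 to 18 in place of 17, 18 to 36 in place of 34 and 14 to 27 in place of 24. A left-out library also leaves fewer residual degrees of freedom.

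Without TMM factors the log2FC of Tcf7l2 at 2 h was -0.0176 in place of 0.09, and with each library left out it was -0.0195 to 0.18 at 2 h, -0.11 to 0.33 at 12 h and -0.20 to 0.24 between the times. That of Axin2 at 2 h was -0.33 to 0.0268. Neither gene passed, and the cause was not tested.

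The labels number the replicates in each group but do not say that a number pairs libraries. Over 11080 genes, the deviations of same-numbered libraries from their groups were correlated: r was 0.708 for the vehicle and 2 h pair, 0.263 for vehicle with 12 h, and 0.392 for the TGFβ1 groups. With the number as a replicate block, 3, 4 and 5 of the 10 genes were called at 2 h, at 12 h and between the times, Wnt7b and Axin2 being added in the last (adjusted p = 0.0271 and 0.0275), and 24, 38 and 32 of the pathway list. The rise of Ctnnb1 at 2 h also passed with it (adjusted p = 0.0238), and Wnt4 at 2 h had an adjusted p of 0.000903.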
